A study of Bos taurus with 16 samples.

Results

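The genes of cholesterol synthesis and cholesterol uptake were followed in the liver of crossbred beef steers. The set followed the known pathway and was put together with earlier results of these data known. A member was used where the array annotation gave its transcript cluster exactly 1 gene symbol. Of 31 genes in the set, 28 were measured, out of 18444 gene symbols with a value. FDPS lay only on a transcript cluster shared with another gene and was not analysed here, nor were INSIG2 and STARD4. Each measured gene had 1 transcript cluster, which is the group of array probes that reports one gene. The mean signal of the 28 genes lay between the 64.4th percentile (SCAP) and the 99.5th percentile (SC5D) of all transcript clusters, a statement about probe brightness and not about which gene had more RNA.

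The liver makes cholesterol from acetyl-CoA through the mevalonate arm, which ends in isoprenoid diphosphates, and the sterol arm, which starts with squalene. When sterols are scarce in the endoplasmic reticulum, SCAP escorts the transcription factor SREBP2, the product of SREBF2, to the Golgi for cleavage, and the released fragment switches on nearly every enzyme of both arms. When sterols are plentiful, INSIG1 holds the SCAP-SREBP2 complex back. Cholesterol also enters the cell by lipoprotein receptors, leaves the lysosome through NPC1 and NPC2, is stored as ester by SOAT1 and is exported through ABCA1.

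All 16 animals were crossbred steers, less than a year old when the trial began, that ate a high-concentrate finishing diet with wet distillers grains for 78 days. They were chosen from a larger herd for lying far from the mean of gain and intake, and formed 4 groups of 4 steers. Those of high gain split into a high gain-high intake group and a high gain-low intake group, and those of low gain into a low gain-high intake group and a low gain-low intake group. The groups were formed by how the animals ate and grew on one diet, with no treatment assigned. Breed make-up, as the study's methods give it by group, was not the same in the 4 groups, and since the labels give no breed for a single steer, breed and group cannot be told apart. Both gain and intake were measured on the same steers whose liver was then sampled. The right lobe of the liver was collected at harvest, and total RNA of each steer was hybridised to 1 array. RNA integrity, as the study's methods report it, varied between samples. The labels do not give it for a single steer, so its part in the values was not tested. Steers of a group are numbered 1 to 4 here only as names. Since the samples are bulk tissue, fewer cells of a type and less RNA per cell cannot be told apart. Values are given on the deposited log2 scale, on which a difference of 1 is 2-fold, and the number of arrays limits the precision of each comparison.

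The 16 arrays correlated with each other at r of 0.935 to 0.983 over all transcript clusters, and no pair was identical. By their median value the arrays fell into 2 sets of 8, set 1 with medians of 7.41 to 7.47, set 2 with medians of 7.16 to 7.28, and no label names such a split. Set 1 was the first 8 arrays in the order of the deposited samples and set 2 the last 8. Set 1 held 1 of the high gain-high intake steers and 3 of the low gain-low intake steers, set 2 held 3 of the high gain-high intake steers and 1 of the low gain-low intake steers, and the other groups were split evenly. Within-set values are given beside the called genes for this reason. The hepatocyte marker list averaged 18.7 to 19.4 in every array. Single markers varied more. APOB, the main protein of secreted lipoproteins, lay between 18.32 and 19.96, HNF4A between 12.77 and 15.06 and APOA1 between 7.97 and 10.09. In high gain-low intake steer 1, of set 1, ALB, TTR, TF and AHSG all had the same value of 20.84. ALB, FGB and AHSG likewise shared 21.02 in low gain-high intake steer 1 and 21.13 in low gain-low intake steer 2. The brightest markers were thus not told apart in these arrays.

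The cholesterol genes varied widely from steer to steer. The distance between the lowest and the highest of the 16 steers ran from 1.15 log2 units for SCAP (2.22-fold) to 5.11 for INSIG1 (34.5-fold), with a median of 2.15 over the 28 genes. HMGCS1 spanned 4.54 log2 units, or 23.3-fold. The map of all members by steer shows that most enzyme rows shared the same dark and light columns.

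**Figure D1:**
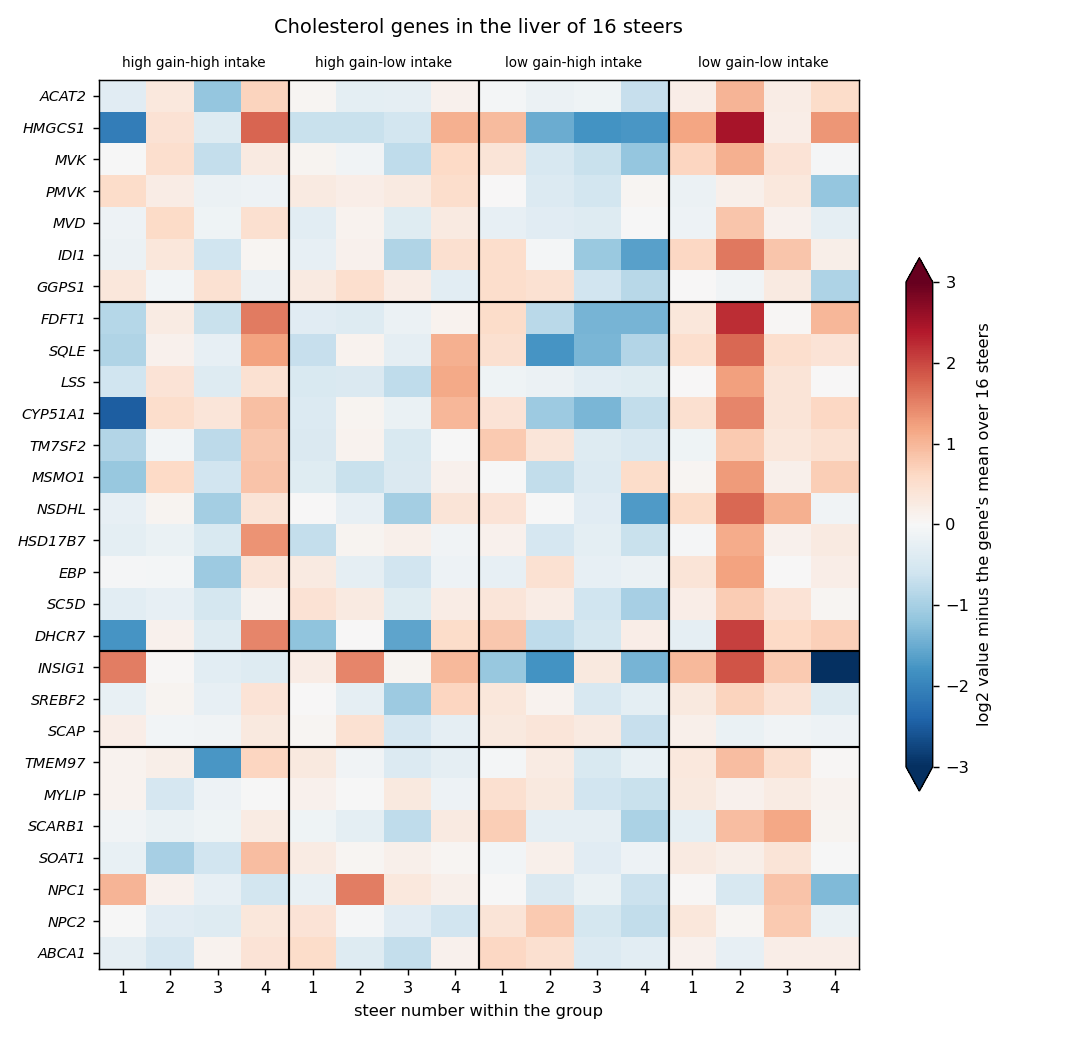
The log2 value of each of the 28 genes (rows) in each of the 16 steers (columns, by group and steer number), minus that gene's mean over the 16 steers. Colours run from -3 to 3 and black lines separate the mevalonate arm, the sterol arm, the sensing genes and the genes of uptake, transport, storage and export. Low gain-low intake steer 2 is red in nearly every enzyme row, and INSIG1 in low gain-low intake steer 4 lies beyond the end of the colour scale.

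The first question was whether the 4 groups differed. In 21 of 28 genes the mean was highest in low gain-low intake steers, and in 15 it was lowest in low gain-high intake steers. Among the 19 measured SREBP2 targets, which are the synthesis enzymes with INSIG1 and TMEM97 but without GGPS1, the low gain-low intake group was highest for 16 and lowest for 0. The low gain-high intake group was lowest for 14 of those targets. No share of all transcript clusters with the same highest or lowest group is given here to set beside these counts. The targets also co-varied (median r of 0.60 between pairs), so they are not separate observations of a group difference. A moderated F over the 4 groups in limma gave a nominal (unadjusted) p of 0.05 or less for 2 of the 28 genes, IDI1 (p = 0.038, exact permutation p = 0.0735) and SQLE (p = 0.0408, exact permutation p = 0.0877), where 2.33% of all 26773 transcript clusters did so. After Benjamini-Hochberg adjustment over all transcript clusters in limma, 0 of the 28 genes passed and every adjusted p was 1. An ordinary F, the test the study's methods name, called 0 of the 28 at a nominal p of 0.05, where 2.72% of all transcript clusters were called, and 0 after adjustment.

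The groups form a 2 by 2 layout, so gain, intake and their interaction were each taken as a contrast. The gain effect is the mean of the high gain groups minus that of the low gain groups, and the intake effect the same for intake. The interaction is the gain effect at high intake minus the gain effect at low intake, and it is positive where steers high in both or low in both have the higher values. For the interaction, 24 of the 28 genes were positive and 4 negative, with a median of 0.65 against a median of -0.041 over all transcript clusters, of which 12024 were positive. With dim transcript clusters left out, the background ran the other way, with a median of 0.059 and 7656 of 13387 positive. In limma, 4 members had a positive interaction at a nominal p of 0.05 or less, HMGCS1, IDI1, FDFT1 and SQLE, where 1.15% of all transcript clusters did, or 1.49% with the dim ones left out. None of the 28 had a negative one, against 1.66% of all transcript clusters. The adjusted p in limma was 1 for every member.

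For intake, 25 of the 28 genes were lower at high intake than at low intake, with a median of -0.26 against -0.032 over all transcript clusters, of which 42.4% were higher. With dim transcript clusters left out the background median was -0.057 and 38.4% were higher. IDI1, SQLE and SC5D were lower at a nominal p of 0.05 or less in limma, where 1.64% of all transcript clusters were, and 0 members were higher, where 1.23% were. For gain, 21 of the 28 genes were lower at high gain, with a median of -0.15 against -0.037 over all transcript clusters, of which 41.7% were higher. With the dim ones left out that background was -0.046 and 40.4%. PMVK alone was higher at high gain at that threshold, where 1.19% of all transcript clusters were, and 0 members were lower, where 2.29% were. The limma adjusted p was 0.998 for every member in the intake contrast and 1 in the gain contrast.

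**Figure D2:**
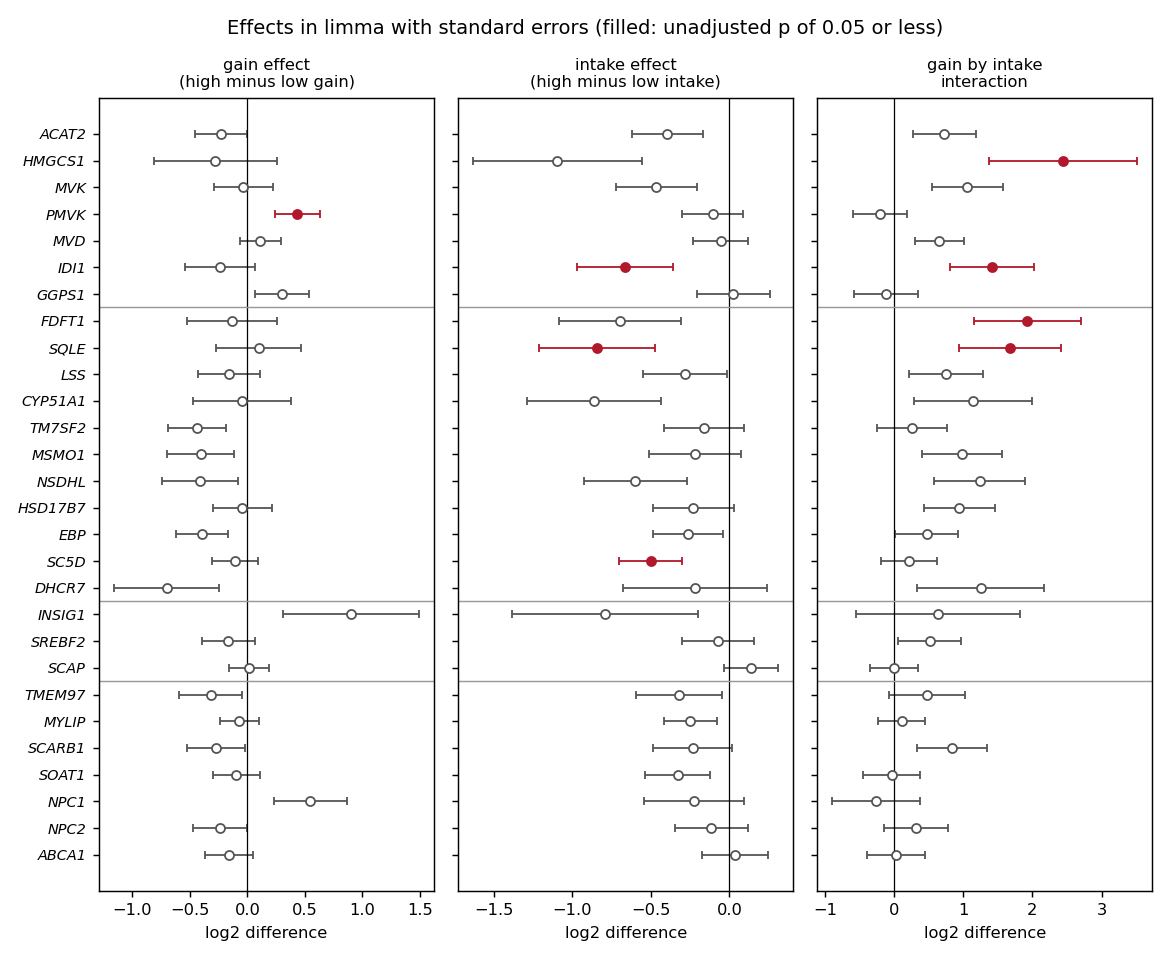
Gain effect, intake effect and interaction of each of the 28 genes in limma (log2 difference on the x axis of each panel, bars are standard errors). Filled red points have a nominal p of 0.05 or less, and most interaction points of the sterol arm lie right of 0.

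In the mevalonate arm, HMGCS1 and IDI1 carried the interaction. HMGCS1 makes HMG-CoA, the compound from which mevalonate is formed. HMGCS1 had log2 values of 13.90, 16.41, 15.59 and 17.72 in high gain-high intake steers 1 to 4, and 15.32, 15.31, 15.43 and 17.04 in high gain-low intake steers. It had 16.93, 14.49, 14.19 and 14.23 in low gain-high intake steers, and 17.17, 18.45, 16.18 and 17.32 in low gain-low intake steers. Among low gain steers, low gain-high intake steers 2 to 4 lay below every low gain-low intake steer, and steer 1 lay within their range. The high gain-high intake steers covered nearly the whole span of the 16. The group means were 15.90 ± 1.60 in high gain-high intake steers, 15.78 ± 0.84 in high gain-low intake steers, 14.96 ± 1.32 in low gain-high intake steers and 17.28 ± 0.93 in low gain-low intake steers (SD, n = 4 each). The HMGCS1 interaction was 2.44 with a standard error of 1.07 (limma, nominal p = 0.0367, adjusted p = 1), and a two-sided exact permutation test over all 12870 choices of 8 of the 16 steers gave p = 0.0765. Within the array sets the interaction was 0.14 in set 1 and 3.44 in set 2.

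IDI1, the isomerase that supplies the dimethylallyl unit for chain building, had 14.52, 15.03, 14.10 and 14.74 in high gain-high intake steers and 14.45, 14.81, 13.78 and 15.16 in high gain-low intake steers. Its values were 15.22, 14.62, 13.58 and 13.06 in low gain-high intake steers and 15.31, 16.28, 15.51 and 14.87 in low gain-low intake steers. Low gain-high intake steer 1 was again the one that overlapped the low gain-low intake group, lying above its steer 4. The IDI1 interaction was 1.42 with a standard error of 0.61 (limma p = 0.0338, adjusted p = 1, exact permutation p = 0.072), and 0.67 and 1.70 within array sets 1 and 2. IDI1 was also lower at high intake than at low intake by a log2 effect of -0.66 with a standard error of 0.30 (limma p = 0.0453, adjusted p = 0.998, exact permutation p = 0.0954), with -0.44 and -0.70 within the sets. With array set in the model the IDI1 intake effect was -0.50 and missed the threshold.

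PMVK, the kinase that acts after MVK, was called for gain and not for the interaction. It had 9.28, 8.96, 8.55 and 8.58 in high gain-high intake steers and 9.01, 8.94, 8.99 and 9.27 in high gain-low intake steers. Low gain-high intake steers had 8.75, 8.32, 8.19 and 8.78, and low gain-low intake steers 8.54, 8.89, 9.04 and 7.58. Every high gain-low intake steer lay above every low gain-high intake steer, and the other groups overlapped. The share of all transcript clusters that separate this pair of groups is not given here. The PMVK gain effect was 0.43 with a standard error of 0.20, or 1.35-fold higher at high gain (limma p = 0.0414, adjusted p = 1, exact permutation p = 0.0333). It was 0.44 in set 1 and 0.88 in set 2. It missed the threshold in limma in 9 of the 16 omissions of a steer, and its smallest value was 0.28 without low gain-low intake steer 4, the lowest of the 16.

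The other measured genes of the mevalonate arm passed no threshold in the values as deposited with all 16 steers. ACAT2, the thiolase at the entry of the pathway, averaged 14.63 ± 0.80 in high gain-high intake steers, 14.66 ± 0.22 in high gain-low intake steers, 14.50 ± 0.29 in low gain-high intake steers and 15.26 ± 0.38 in low gain-low intake steers (SD, n = 4 each). Its low gain-high intake steers (14.07 to 14.70) all lay below its low gain-low intake steers (14.96 to 15.78). That was so for 2 of the 28 genes, ACAT2 and LSS, and for 0.721% of all transcript clusters. MVK, the first mevalonate kinase, had an interaction of 1.06 with a standard error of 0.51 (limma p = 0.0545, adjusted p = 1, exact permutation p = 0.0859), with 0.74 and 0.99 within the sets. The MVK interaction did pass with array set in the model (1.06), after quantile normalization (0.98) and after median subtraction (1.11). MVD, which decarboxylates mevalonate diphosphate, had an interaction of 0.66 with a standard error of 0.35 (limma p = 0.0802, adjusted p = 1, exact permutation p = 0.0744) and 0.53 and 0.30 within the sets. GGPS1, which makes the geranylgeranyl unit for protein prenylation and lies on a side branch, had an interaction of -0.12 with a standard error of 0.46. Its gain effect was 0.30 with a standard error of 0.23 as deposited, 0.087 and 0.83 within the sets, and 0.49 with array set in the model, where it passed for gain and over the 4 groups.

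All 11 genes of the sterol arm had a positive interaction and a lower mean at high than at low intake. The median interaction was 0.98 in the sterol arm and 0.73 in the 7 measured genes of the mevalonate arm. FDFT1 is squalene synthase, the first committed step towards sterols. FDFT1 had 13.27, 14.38, 13.47 and 15.68 in high gain-high intake steers and 13.80, 13.74, 13.95 and 14.24 in high gain-low intake steers. It had 14.68, 13.33, 12.73 and 12.74 in low gain-high intake steers and 14.46, 16.36, 14.17 and 15.12 in low gain-low intake steers. The high gain-low intake steers lay close together, low gain-high intake steers 2 to 4 lay below all low gain-low intake steers, and low gain-high intake steer 1 lay among their values. The FDFT1 interaction was 1.93 with a standard error of 0.78 (limma p = 0.025, adjusted p = 1, exact permutation p = 0.049), and 0.50 and 2.80 within array sets 1 and 2.

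SQLE, squalene epoxidase, catalyses a step at which flux into sterols is controlled. SQLE had 13.79, 14.82, 14.44 and 15.92 in high gain-high intake steers and 13.99, 14.81, 14.43 and 15.76 in high gain-low intake steers. Low gain-high intake steers had 15.18, 12.92, 13.33 and 13.81, and low gain-low intake steers 15.21, 16.43, 15.21 and 15.12. The high gain groups covered almost the same span, and in the low gain groups only low gain-high intake steer 1 reached the lowest low gain-low intake steer. The SQLE interaction was 1.68 with a standard error of 0.74 (limma p = 0.0373, adjusted p = 1, exact permutation p = 0.0817), and 0.96 and 1.52 within the sets. At high intake SQLE was lower by a log2 effect of -0.84 with a standard error of 0.37 (limma p = 0.0363, adjusted p = 0.998, exact permutation p = 0.0794), with -1.09 and -0.79 within the sets.

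SC5D, the desaturase that acts late in the sterol arm, had the largest intake contrast relative to its error among the 28 genes. It had 18.98, 19.05, 18.76 and 19.40 in high gain-high intake steers and 19.73, 19.56, 18.94 and 19.52 in high gain-low intake steers. It had 19.67, 19.51, 18.70 and 18.30 in low gain-high intake steers and 19.49, 20.06, 19.71 and 19.35 in low gain-low intake steers. High and low intake steers overlapped at both levels of gain. The intake effect on SC5D was -0.50 with a standard error of 0.20 (limma p = 0.0247, adjusted p = 0.998, exact permutation p = 0.0264), with -0.42 and -0.50 within the sets. It missed the threshold in limma without high gain-low intake steer 1 (-0.45), low gain-low intake steer 2 (-0.43), low gain-high intake steer 3 (-0.44) or low gain-high intake steer 4 (-0.38), and after quantile normalization (-0.20).

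Of the remaining sterol arm enzymes, CYP51A1, the lanosterol demethylase, and DHCR7, a reductase at the end of the pathway, had the widest span over the 16 steers. CYP51A1 averaged 13.00 ± 1.56 in high gain-high intake steers, 13.29 ± 0.62 in high gain-low intake steers, 12.47 ± 0.79 in low gain-high intake steers and 13.91 ± 0.49 in low gain-low intake steers (SD, n = 4 each), with an interaction of 1.15 and a standard error of 0.85. The CYP51A1 interaction was -1.20 in set 1 and 1.88 in set 2, so it ran in opposite directions within the sets. Its intake effect was -0.86 as deposited and -1.01 with array set in the model, where alone of these 2 fits it passed. DHCR7 averaged 13.11 ± 1.34 in high gain-high intake steers, 12.70 ± 1.00 in high gain-low intake steers, 13.19 ± 0.72 in low gain-high intake steers and 14.03 ± 0.96 in low gain-low intake steers, with an interaction of 1.25, a standard error of 0.91 and within-set values of -0.41 and 1.79. TM7SF2, a sterol reductase, also had opposite within-set interactions of -0.96 and 1.11. In set 1 the high gain-high intake group was steer 1 alone, and in set 2 the low gain-low intake group was steer 4 alone. High gain-high intake steer 1 was the lowest of the 16 for CYP51A1 (10.69), DHCR7 (11.48) and TM7SF2 (11.14). NSDHL and HSD17B7, which act in turn on the demethylated sterol, had interactions of 1.24 and 0.94 with standard errors of 0.66 and 0.51, positive within both sets. After quantile normalization the NSDHL interaction was 1.12 and passed, as it did over the 4 groups. LSS, which closes the sterol rings, averaged 11.19 ± 0.55 in high gain-high intake steers, 11.10 ± 0.85 in high gain-low intake steers, 10.98 ± 0.11 in low gain-high intake steers and 11.63 ± 0.57 in low gain-low intake steers, with an interaction of 0.75, a standard error of 0.54 and within-set values of 0.54 and 0.31. MSMO1, a methylsterol oxidase, and EBP, a sterol isomerase, had interactions of 0.98 and 0.47 with standard errors of 0.58 and 0.45, both positive within each set.

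The 4 genes named by the interaction were then split by gain, a comparison chosen after their values were seen. Among low gain steers, HMGCS1 was 4.98-fold lower at high than at low intake (log2 difference -2.32, standard error 0.76). For IDI1, FDFT1 and SQLE, the same low gain comparison gave -1.37 (2.59-fold), -1.66 (3.16-fold) and -1.68 (3.21-fold), with standard errors of 0.43, 0.55 and 0.52. Among high gain steers, the high minus low intake differences of these genes were 0.13 for HMGCS1, 0.046 for IDI1, 0.27 for FDFT1 and -0.0049 for SQLE.

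**Figure D3:**
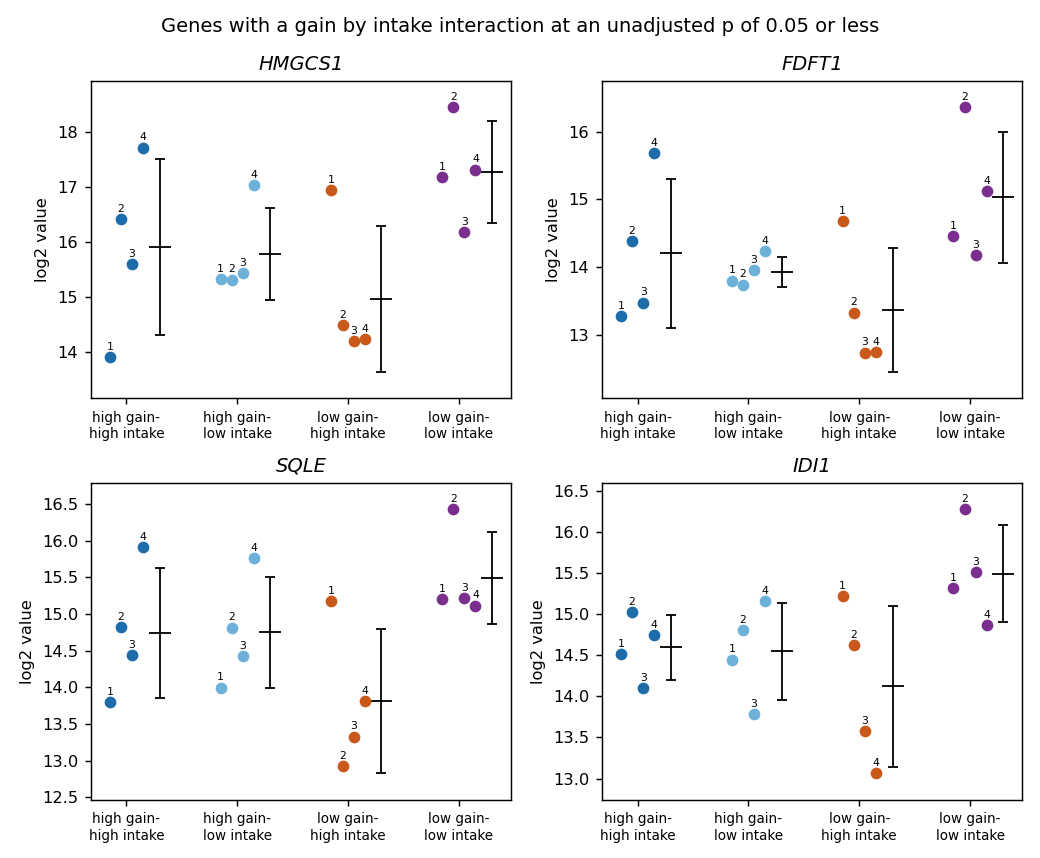
Log2 values of HMGCS1, FDFT1, SQLE and IDI1 in the 16 steers, by group, with the steer number above each point and the group mean and SD as a horizontal line and bars (n = 4 each). Low gain-high intake steers 2 to 4 lie below the low gain-low intake steers in all 4 genes, and low gain-high intake steer 1 reaches into their range.

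Among the sensing genes, SREBF2, which encodes SREBP2 itself, had 9.56, 9.85, 9.55 and 10.20 in high gain-high intake steers and 9.80, 9.51, 8.70 and 10.41 in high gain-low intake steers. SREBF2 had 10.12, 9.89, 9.31 and 9.48 in low gain-high intake steers and 10.07, 10.44, 10.22 and 9.38 in low gain-low intake steers. All 4 groups overlapped, and the SREBF2 interaction was 0.51 with a standard error of 0.46 (limma p = 0.276, adjusted p = 1, exact permutation p = 0.287). SCAP, the escort protein, was the least variable of the 28 genes, with an interaction of 0.0005 and a standard error of 0.35.

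INSIG1, which is itself a known SREBP2 target, was the most variable member and was called in no contrast when all 16 steers were used. It had 17.29, 15.80, 15.44 and 15.37 in high gain-high intake steers and 15.98, 17.24, 15.84 and 16.73 in high gain-low intake steers. It had 14.64, 13.97, 16.06 and 14.36 in low gain-high intake steers and 16.73, 17.65, 16.55 and 12.54 in low gain-low intake steers. Both the highest and the lowest of the 16 steers, low gain-low intake steers 2 and 4, were in one group, whose SD was 2.27. The INSIG1 gain effect was 0.90 with a standard error of 0.59 (limma p = 0.149, adjusted p = 1, exact permutation p = 0.198), and 1.31 and 2.04 within the sets. Its interaction was 3.36 in set 1 and -3.42 in set 2, where the low gain-low intake group was steer 4 alone. Without that steer INSIG1 passed in limma over the 4 groups, for intake (-1.35, against -0.79 with all steers) and for the interaction (1.75, against 0.64).

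The 7 measured genes of uptake, transport, storage and export had a median interaction of 0.11, with 0 genes at a nominal p of 0.05 or less in limma in any contrast of the deposited values with all 16 steers. SCARB1, the receptor for high-density lipoprotein, averaged 10.35 ± 0.20 in high gain-high intake steers, 10.16 ± 0.42 in high gain-low intake steers, 10.20 ± 0.70 in low gain-high intake steers and 10.86 ± 0.69 in low gain-low intake steers (SD, n = 4 each). The SCARB1 interaction was 0.84 with a standard error of 0.50 (limma p = 0.115, adjusted p = 1, exact permutation p = 0.14), with 0.48 and 0.90 within the sets. TMEM97, an endoplasmic reticulum protein that binds NPC1 and is an SREBP2 target, had an interaction of 0.48 with a standard error of 0.55, and one of 1.00 that passed when high gain-high intake steer 3 was left out. NPC1 averaged 10.40 ± 0.68 in high gain-high intake steers and 10.75 ± 0.76 in high gain-low intake steers, against 9.98 ± 0.28 in low gain-high intake steers and 10.08 ± 0.92 in low gain-low intake steers, a gain effect of 0.55 with a standard error of 0.32. The NPC1 gain effect was 0.89 and 0.88 within the sets, and it passed with array set in the model (0.74) and after quantile normalization (0.58). MYLIP, the ligase that marks lipoprotein receptors for degradation, SOAT1, NPC2 and ABCA1 had interactions of 0.11, -0.032, 0.32 and 0.028.

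The next question was which arrays carried the group pattern. Each SREBP2 target was expressed as its log2 value minus its own mean over the 16 steers, and the 19 targets were averaged within each steer. This target mean was -0.056 ± 0.61 in high gain-high intake steers, -0.071 ± 0.37 in high gain-low intake steers, -0.41 ± 0.42 in low gain-high intake steers and 0.53 ± 0.55 in low gain-low intake steers (SD, n = 4 each). Its interaction was 0.95 and its intake effect -0.46, next to an SD of 0.50 between steers of a group.

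One steer stood far above the rest. Low gain-low intake steer 2 had a target mean of 1.34, or 2.53-fold over the average, was the highest of the 16 steers for 16 of the 19 targets, and exceeded the average for all 19. The other low gain-low intake steers 1, 3 and 4 were at 0.30, 0.39 and 0.096, and all 19 targets of steer 3 lay above their own average. High gain-high intake steer 4 (0.67) and high gain-low intake steer 4 (0.42) were the next highest of the 16 after steer 2. Low gain-low intake steer 2 was also the highest after quantile normalization, after median subtraction and with the array-set means subtracted. At the low end were low gain-high intake steers 2, 3 and 4 at -0.49, -0.63 and -0.71 and high gain-high intake steers 1 and 3 at -0.53 and -0.58. Low gain-high intake steer 1 stood apart from its group at 0.21. Low gain-low intake steers were all above 0 and low gain-high intake steers 2 to 4 all below, whereas each high gain group had steers on both sides. After quantile normalization low gain-high intake steers 1 and 4 were at -0.016 and -0.11 and high gain-high intake steer 3 at -0.14, and the lowest steer was high gain-high intake steer 1 at -0.76. That steer was also the lowest, at -0.65, with the array-set means subtracted, where low gain-high intake steer 4 was at -0.59.

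Leaving out low gain-low intake steer 2 changed the calls. Without it, the interaction of the target mean was 0.68 and 0 of the 28 genes had an interaction at a nominal p of 0.05 or less in limma, nor did any pass over the 4 groups or for intake. In that fit, 1.83% of all transcript clusters passed over the 4 groups and 2.34% for intake. The interaction count was also 0 when high gain-high intake steer 4, low gain-high intake steer 3 or low gain-high intake steer 4 was left out, and it was 9 without high gain-high intake steer 3, where 1.68% of all transcript clusters had a positive call. Positive calls took in 0.799% of all transcript clusters without low gain-low intake steer 2, 0.9% without high gain-high intake steer 4, and 1.03% and 0.848% without low gain-high intake steers 3 and 4. The FDFT1 interaction missed the threshold in limma when any of these 4 steers was left out, at 1.49 without low gain-low intake steer 2, at 1.72 with either low gain-high intake steer omitted and at 1.44 with high gain-high intake steer 4 omitted. The same 4 omissions made HMGCS1, IDI1 and SQLE miss it as well, and so did omitting high gain-high intake steer 2, high gain-low intake steer 1 or high gain-low intake steer 3. For HMGCS1 and SQLE the omission of low gain-high intake steer 2 did so too, and for HMGCS1 that of high gain-low intake steer 2 or low gain-low intake steer 4. Their interactions stayed positive with each of the 16 steers left out, from 1.84 to 3.11 for HMGCS1, 1.06 to 1.78 for IDI1, 1.44 to 2.37 for FDFT1 and 1.29 to 2.14 for SQLE. In the intake contrast, IDI1 missed the threshold in 11 of the 16 omissions and SQLE in 8, with effects of -0.85 to -0.49 and -1.07 to -0.68. With each of the 16 steers left out in turn, the interaction of the target mean stayed between 0.68 and 1.16.

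**Figure D4:**
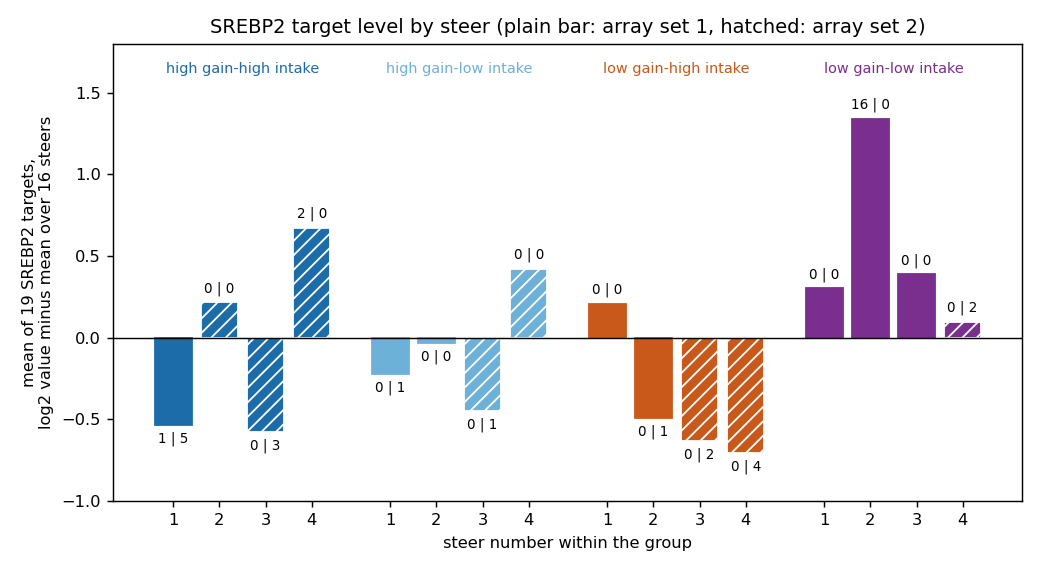
Mean over the 19 SREBP2 targets of the log2 value minus the target's mean over 16 steers (y axis), for each steer by group (x axis). Plain bars are arrays of set 1 and hatched bars arrays of set 2, and the numbers at each bar count the targets in which that steer is the highest, then the lowest, of the 16. Low gain-low intake steer 2 is highest in 16 targets, and the lowest bar in the deposited values is low gain-high intake steer 4, whereas after quantile normalization it would be high gain-high intake steer 1.

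The last question was how tightly the SREBP2 targets co-varied. Over the 171 pairs of the 19 targets and the 16 steers, the median Pearson r was 0.60, from -0.26 to 0.94, with 159 pairs positive and 59 at 0.7 or more. All pairs of transcript clusters had a median r of 0.074, and 4.89% of them reached the median of the targets. These pairs include dim transcript clusters, whereas every target lay at the 71.4th percentile of signal or above. No share among bright transcript clusters alone is given here. These r are descriptions, since the genes share the same 16 arrays. After the mean of each array set was subtracted, the targets' median r was 0.66, a value that 0.665% of all pairs reached, and after the group means were subtracted it was 0.53, a value that 10.7% reached. With both subtracted it was 0.62, which 1.99% reached. Within the 8 arrays of set 1 it was 0.75 and within the 8 of set 2 0.59, at or above which lay 1.84% and 7.63% of all pairs. Without low gain-low intake steer 2 the median r was 0.49.

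The closest pair was HMGCS1 with FDFT1, at r of 0.94. MVK with IDI1, IDI1 with NSDHL and HMGCS1 with SQLE came next, at 0.94, 0.93 and 0.93. All but MVK with IDI1 join an enzyme of the mevalonate arm to one of the sterol arm. MVK and NSDHL are in these pairs, and neither had a nominal p of 0.05 or less in any contrast of the deposited values with all 16 steers and no array-set term. PMVK with TM7SF2 was the lowest pair at -0.26.

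HMGCS1, the head of the pathway, was set against each of the other 18 targets, a family of 18 relations. Permutation tests (two-sided, 100000 resamples) gave an adjusted p below 0.05 over these 18 relations for 14 targets by Pearson's r and 12 by Spearman's rho, and since the genes were chosen with these data known, the p-values are no independent evidence. HMGCS1 and FDFT1 had r of 0.94 and rho of 0.96 over the 16 steers, both with p = 1e-05, the smallest the resampling can give, and r of 0.94 and 0.96 within sets 1 and 2. For SQLE, r was 0.93 and rho 0.91, with 0.91 and 0.96 within the sets. For CYP51A1, r was 0.91 and rho 0.96, with 0.92 and 0.93 within the sets. Without the 2 steers farthest from the HMGCS1 median, low gain-low intake steer 2 and high gain-high intake steer 1, these 3 r were 0.94, 0.91 and 0.92, and the median over the 18 targets was 0.62 in place of 0.74. By Pearson's r, the relations that did not pass were those with PMVK (r = -0.10, permutation p = 0.717), INSIG1 (0.047, p = 0.863), TMEM97 (0.41, p = 0.115) and EBP (0.45, p = 0.0752). By Spearman's rho MVD (0.49, permutation p = 0.0536) and SC5D (0.44, permutation p = 0.0898) did not pass either.

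Against the mean of the other 18 targets, 14 of the 19 targets had an r of 0.7 or more and all 19 were positive. FDFT1 (0.90), SQLE (0.89), HMGCS1 (0.88) and MVK (0.88) followed the rest most closely, and INSIG1 (0.20) and PMVK (0.093) least. Those last r moved with single steers, to 0.36 and 0.21 without low gain-low intake steer 4 and to -0.035 and 0.039 without low gain-low intake steer 2. Without low gain-low intake steer 2, 9 of 19 targets were at 0.7 or more, 18 were positive and the median was 0.68 in place of 0.76. Of the 9 members outside the targets, SREBF2 (0.75) and SCARB1 (0.73) ran with the target mean, and did so within set 1 (0.82 and 0.68) and within set 2 (0.74 and 0.78). NPC1, GGPS1 and SCAP did not, at -0.078, -0.046 and 0.048.

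INSIG1 instead ran with PMVK (r = 0.72) and NPC1 (0.70) over the 16 steers, and PMVK with NPC1 (0.68). These 3 genes were lowest in low gain-low intake steer 4, without which the r of INSIG1 with PMVK was 0.51 and with NPC1 0.57. They are given as descriptions and were singled out after their values were seen.

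**Figure D5:**
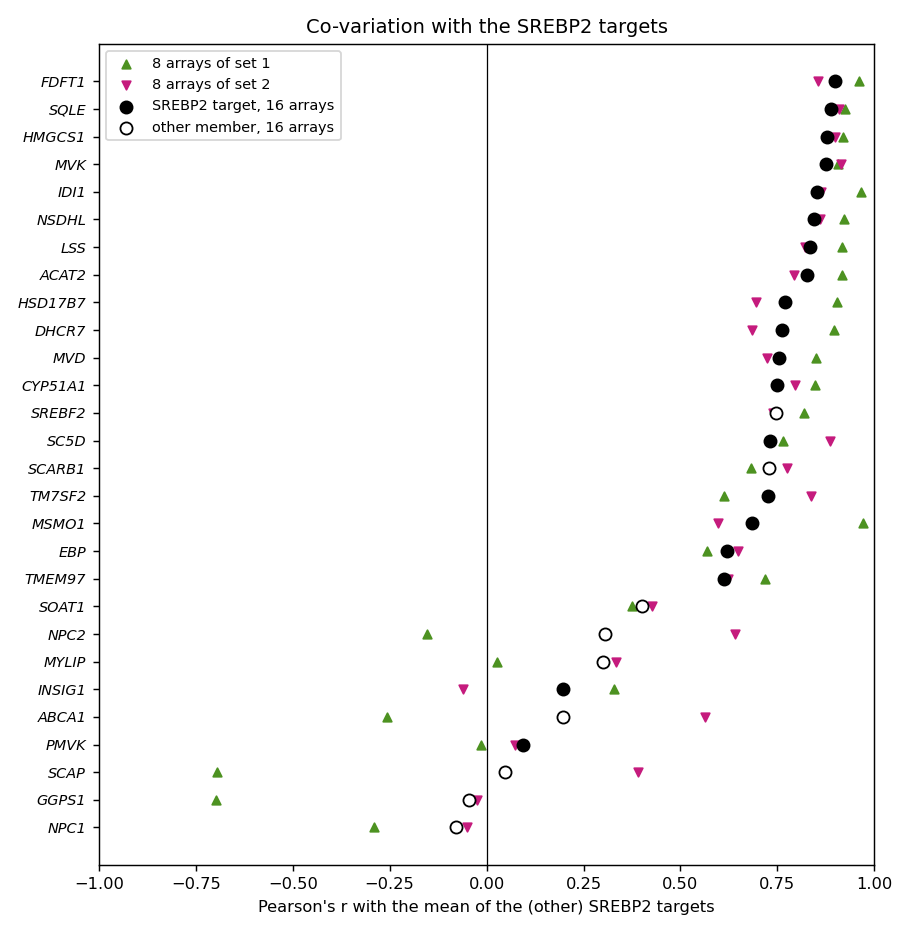
Pearson's r of each of the 28 genes with the mean of the SREBP2 targets (x axis; the gene itself is left out of the mean where it is a target). Circles are r over 16 arrays, filled for targets and open for other members, and triangles are r within the 8 arrays of set 1 (pointing up) and set 2 (pointing down). The synthesis enzymes gather between 0.62 and 0.90 apart from PMVK and GGPS1, and SREBF2 and SCARB1 lie among them.

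Of 27 other genes of sterol and bile acid handling, 20 were measured, and 3 had a gain effect at a nominal p of 0.05 or less in limma, all lower at high gain, where 2.29% of all transcript clusters were. LBR, a nuclear envelope protein that can also reduce the sterol double bond on which TM7SF2 acts, had 7.62, 7.38, 7.52 and 8.22 in high gain-high intake steers and 8.44, 7.43, 7.72 and 7.36 in high gain-low intake steers, against 8.49, 8.47, 7.65 and 8.70 in low gain-high intake steers and 8.50, 8.13, 8.03 and 8.79 in low gain-low intake steers. High and low gain steers overlapped through 2 high gain steers and low gain-high intake steer 3. The LBR gain effect was -0.63 with a standard error of 0.20 (limma p = 0.00651, adjusted p = 1, exact permutation p = 0.0101), with -0.58 and -0.86 within the sets. ERLIN2, which helps degrade the reductase at the start of the pathway, had a gain effect of -0.39 (standard error 0.15, limma p = 0.016, adjusted p = 1, exact permutation p = 0.0137), with -0.30 and -0.33 within the sets. NR1H2, a sterol-sensing nuclear receptor, had one of -0.32 (standard error 0.14, limma p = 0.037, adjusted p = 1, exact permutation p = 0.0284), with -0.36 and -0.053 within the sets. None of the 20 passed in the intake contrast or the interaction.

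Markers of other liver cell types were read in the same contrasts. The mean of the 9 Kupffer cell markers was 10.1 to 12.05 in high gain-high intake steers, 10.1 to 11.98 in high gain-low intake steers, 10.3 to 12.2 in low gain-high intake steers and 11.2 to 12.2 in low gain-low intake steers, and its interaction was 0.54. MARCO, a macrophage scavenger receptor, was the 1 of these 9 with an interaction at a nominal p of 0.05 or less in limma, at 1.58 with a standard error of 0.62 (p = 0.0216, adjusted p = 1, exact permutation p = 0.0502). The mean of the 6 T and NK cell markers was 6.73 to 7.30 in high gain-high intake steers, 6.81 to 7.39 in high gain-low intake steers, 7.06 to 8.26 in low gain-high intake steers and 6.95 to 7.14 in low gain-low intake steers, and its interaction was -0.61. CD2, a T cell adhesion receptor, had an interaction of -1.11 with a standard error of 0.39 (limma p = 0.0124, adjusted p = 1, exact permutation p = 0.00824). Positive interactions at a nominal p of 0.05 or less in limma took in 1.15% of all transcript clusters and negative ones 1.66%. Across the 16 steers the Kupffer list ran with the target mean at r of 0.25 and the T and NK list at -0.11. The largest r of a marker list in either direction were those of the hepatocyte list (0.49), the cholangiocyte list (-0.52) and the B and plasma list (-0.31). The endothelial, adipocyte and fibroblast lists were at 0.27, 0.24 and 0.14. Hepatocyte markers had a median interaction of 0.38, with 9 positive and 1 negative. Several of the brightest of them shared 1 value in some arrays of set 1, which limits what this count and the r of their list can show. Low gain-low intake steer 2 had the lowest Kupffer and T and NK means of its own group. No list had a marker at 0, and 1 of the 6 T and NK markers and 0 of the 9 Kupffer markers lay below the lowest array's 25th percentile. The same held for 2 of the 5 cholangiocyte markers and 0 of the 10 hepatocyte markers. The part of these cells in the group differences was not tested.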

How the data were processed

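Liver RNA was measured on Affymetrix bovine gene arrays, 1 per steer. The authors computed the deposited log2 values with Affymetrix Expression Console (GC correction, Signal Space Transformation and RMA). The submitters' processing notes also name Transcriptome Analysis Console. Versions of this software, like the genome build, were not given in the sources used here. These values were used as deposited, with no filter, for 26773 transcript clusters, of which 18790 had 1 gene symbol, 385 several and 7598 none in the platform annotation.

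limma 3.58.1 in R 4.3.3 was fitted over all transcript clusters with 1 mean per group and tested on simulated data. P-values of the moderated F and of each contrast were adjusted over all of them (Benjamini-Hochberg). Exact permutation tests (two-sided) used all 2627625 partitions into 4 groups or all 12870 choices of 8 of 16 steers, whose smallest p is 0.000155. Correlations were computed with NumPy 2.4.6 and SciPy 1.17.1. Array sets were split at the widest gap between array medians. Steers were harvested over several days, and by the study's methods each day took 1 steer of every group, so day was balanced over the groups. The day of each steer is not in the labels, so the models leave this block out. Steers are separate animals.

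Values of every steer are given for members with a nominal p of 0.05 or less in the F or a contrast, and for HMGCS1, SQLE, INSIG1 and SREBF2 whatever their p. Outside the members, the rule named genes of the fixed lists that met the same p, and the 10 genes closest to the target mean. The members and lists were chosen with earlier results of these data known. Alternatives were the ordinary F and contrasts of the study's methods, the array set as a block, other scalings, a filter on dim transcript clusters and leaving out each steer.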

Additional observations from a re-analysis of the deposited data

Results flagged for a closer look

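Within single groups of 4 steers, 9 of the 112 group-by-gene sets of values, in 8 genes, had 1 steer whose gap to its nearest neighbour took up more of the group's range than Dixon's 95% limit allows. Chance flags about 1 in 20 such groups. HMGCS1 in high gain-low intake steer 4 was 17.04, with the nearest steer at 15.43, and LSS (lanosterol synthase) in the same steer was 12.36, with the nearest at 10.79. HMGCS1 in low gain-high intake steer 1 was 16.93, with the nearest at 14.49. SQLE in low gain-low intake steer 2 was 16.43, with the nearest at 15.21, and ABCA1 in the same steer was low at 11.02, with the nearest at 11.42. CYP51A1 in high gain-high intake steer 1 was 10.69, far below the nearest at 13.54, and HSD17B7 in high gain-high intake steer 4 was 13.60, above the nearest at 12.05. EBP in low gain-high intake steer 2 was 15.80, with the nearest at 15.15, and SCAP in low gain-high intake steer 4 was 7.49, with the nearest at 8.45.

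For 4 genes the gain effect at high intake differed from that at low intake at a nominal p of 0.05 or less in the limma interaction, by 2.44 for HMGCS1, 1.42 for IDI1, 1.93 for FDFT1 and 1.68 for SQLE on the log2 scale. The adjusted p was 1 for each in limma, and the exact permutation p was 0.0765, 0.072, 0.049 and 0.0817 in that order.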

How the results depend on the processing

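The ordinary tests of the study's methods called 0 of the 28 genes over the 4 groups, 0 for gain, 1 for intake (SC5D) and 1 for the interaction (FDFT1), against 2, 1, 3 and 4 in limma. Of all transcript clusters they called 2.72%, 3.5%, 2.98% and 3.12% in that order, against 2.33%, 3.48%, 2.86% and 2.81% in limma. The gain count was 3 when array set entered as a block, and after quantile normalization the gain count was 2 and the intake count 1. Beside these 3 counts, 5.24%, 4.14% and 3.47% of all transcript clusters were called. Leaving out each steer in turn gave 0 to 7 genes over the 4 groups, 0 to 5 for gain, 0 to 9 for intake and 0 to 9 for the interaction. The shares of all transcript clusters called also moved, from 1.83% to 3.53%, 2.5% to 5.08%, 2.23% to 5.19% and 2.15% to 3.41% in that order. The count over the 4 groups was 0 without low gain-low intake steer 1 or 2 or low gain-high intake steer 3 or 4, and the intake count was 0 without low gain-low intake steer 2 or low gain-high intake steer 3 or 4. The gain effect of the target mean was -0.13, ran from -0.25 to 0.0083 with single steers left out, and changed sign only without low gain-low intake steer 2 (0.0083), the 1 reversal among the results. Omitting single steers also added calls of members that had none as deposited. The MVK interaction passed without high gain-high intake steer 3, high gain-low intake steer 4, low gain-high intake steer 1 or low gain-low intake steer 4 (1.24 to 1.35), and the NSDHL interaction passed in 3 omissions (1.51 to 1.55). Without high gain-high intake steer 1 the interaction passed for CYP51A1 (1.92), MSMO1 (1.34) and DHCR7, without high gain-high intake steer 3 for ACAT2 (1.07), HSD17B7 (1.13) and TMEM97 (1.00), without high gain-low intake steer 4 for LSS (1.17), without low gain-low intake steer 4 for MVD (0.79), and without low gain-high intake steer 1 (1.15) or low gain-low intake steer 1 (1.10) for SCARB1. Without high gain-high intake steer 4, TM7SF2 (-0.61), EBP (-0.49), DHCR7 (-0.97) and SOAT1 (-0.28) passed for gain, and HSD17B7 (-0.44), ACAT2 (-0.53) and SOAT1 (-0.52) for intake. NPC1 passed for gain without low gain-low intake steer 3 (0.73), NSDHL without low gain-high intake steer 4 (-0.62), and MYLIP for intake without low gain-high intake steer 1 (-0.35). HMGCS1 (-1.42 to -1.28), FDFT1 (-0.94 to -0.91), CYP51A1 (-1.05 to -0.98), MVK (-0.61 to -0.56) and NSDHL (-0.75 to -0.73) passed for intake in 2 or 3 omissions each. The FDFT1 interaction kept its side of the threshold in 17 of 21 alternatives and the HMGCS1 interaction in 10. Over all transcript clusters, quantile normalization turned the split of higher and lower gain calls into 519 and 590, against 319 and 613 as deposited, and that of interaction calls into 405 and 343, against 309 and 444. Median subtraction gave 495 and 467 for gain and 471 and 342 for the interaction. With array set in the model the higher and lower calls were 866 and 538 for gain and 611 and 368 for intake (328 and 439 as deposited), and with dim transcript clusters left out the interaction calls were 199 and 95. The median r of the targets stayed between 0.49 and 0.66, and it was 0.57 as Spearman's rho. The filter on dim transcript clusters dropped no member, and averaging transcript clusters gave no new value because each member had 1. No analysis paired by harvest day was possible, because the labels give neither replicate numbers nor the day of a steer. The array-set term was added to the model of the target mean after seeing the data. It could not move the interaction of 0.95, because the split of the groups over the sets leaves that contrast unchanged whatever the values are. With 4 steers a group, and 1 steer of some groups in an array set, within-set values have no spread of their own, and the scanner signal over background was not analysed here.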

Other observations

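Outside the cholesterol genes, the 10 gene symbols of 18416 whose values ran closest with the SREBP2 target mean, after the array-set means were subtracted, were FASN (r = 0.93), ACACA (0.87), CYB5B (0.86), RDH11 (0.86), RAB32 (0.85), PCYT2 (0.83), PHAF1 (0.83), ERG28 (0.82), TTLL5 (0.82) and COPS4 (0.82). FASN and ACACA make fatty acids, PCYT2 makes phosphatidylethanolamine, and ERG28 is known from yeast as a scaffold of sterol enzymes. FASN averaged 6.85 in high gain-high intake steers, 6.97 in high gain-low intake steers, 6.56 in low gain-high intake steers and 7.74 in low gain-low intake steers, and reached 9.53 in low gain-low intake steer 2, the highest of the 16. These r are descriptions over the same arrays.

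The 12 lipogenic genes of the related factor SREBP1 had a median interaction of 0.58, with 9 positive and 0 at a nominal p of 0.05 or less in limma. GPAM, which starts glycerolipid synthesis, had a gain effect of -0.69 with a standard error of 0.31 (limma p = 0.0387, adjusted p = 1, exact permutation p = 0.0702). The mean of these 12 genes ran with the target mean at r of 0.83 and was highest in low gain-low intake steer 2. In other marker lists, the 9 Kupffer markers had a median gain effect of -0.36, with 2 positive and 7 negative, and CD163 was one of the positive ones at 0.57 (limma p = 0.0281, adjusted p = 1, exact permutation p = 0.0432). In the intake contrast that list was split, with 4 positive, 5 negative and a median of -0.012. MARCO was the 1 called, at -0.67 (limma p = 0.0482, adjusted p = 0.998, exact permutation p = 0.106). The 6 measured fibroblast markers had 2 positive and 4 negative intake effects, with a median of -0.20. DCN was the 1 called, at -0.30 (limma p = 0.0406, adjusted p = 0.998, exact permutation p = 0.0238). In limma, 1.64% of all transcript clusters were lower at high intake at a nominal p of 0.05 or less. The 3 measured B and plasma cell markers had a mean interaction of -0.71.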
